A study of Mus musculus with 4 samples.

Results

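A set of 8 genes of ketone body production and of the PPAR alpha response were followed in the small-intestinal epithelium of neonatal mice. They were chosen by pathway, but with earlier results of these data known, so the number of them called is not independent evidence. The members were Acat1 (ENSMUSG00000032047), Bdh1 (ENSMUSG00000046598), Cpt1a (ENSMUSG00000024900), Acadm (ENSMUSG00000062908), Ppara (ENSMUSG00000022383), Pdk4 (ENSMUSG00000019577), Angptl4 (ENSMUSG00000002289) and Cyp4a10 (ENSMUSG00000066072). All 8 were found by symbol among the 32227 genes of the feature lists of the 4 libraries. The libraries were single-cell 3′ RNA libraries from the jejunum and the ileum of 2 wild-type mice (C57BL/6J by the study's methods) at postnatal day 6, with no treatment or transgene. Both segments came from the same animal, so that replicate 1 of each region was mouse 1 (labelled male, batch 1) and replicate 2 was mouse 2 (labelled female, batch 2). Mouse, labelled sex and batch are the same division of the 4 libraries, and their parts cannot be told apart, and n = 2 per region throughout.

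Ketone bodies are made in mitochondria from the acetyl-CoA that fatty acid oxidation releases. Cpt1a admits long-chain fatty acids to the mitochondrion, Acadm oxidizes those of medium length, Acat1 joins acetyl-CoA units and can also split acetoacetyl-CoA, and Bdh1 interconverts acetoacetate and β-hydroxybutyrate. The suckling intestine receives a diet rich in milk fat, and its enterocytes take up and process the fatty acids released from it. Ppara encodes a nuclear receptor that fatty acids activate and that binds DNA together with a retinoid X receptor. Its textbook targets include Cpt1a and Acadm as well as Pdk4, a kinase that holds back pyruvate dehydrogenase, Angptl4, a secreted inhibitor of lipoprotein lipase, and Cyp4a10, an omega-hydroxylase of fatty acids.

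PPAR alpha and its partner bind repeats of the motif AGGTCA, so the promoters of 3 members are shown, of which 2 were called between the regions and 1 was not. Cpt1a and Pdk4 were lower in the ileum in stem/progenitor-like cells and Acadm was not called in either class. RefSeq (mouse build GRCm38.p6) gave entries for 5 of the 8 members, Cpt1a, Acadm, Bdh1, Ppara and Pdk4, as 6 promoters. The sequences run from base 250 to base 51 before the RefSeq start, 5′ to 3′ on the strand of the gene, and capitals mark AGGTCA on either strand (TGACCT when it lies on the opposite strand).
Cpt1a promoter, chr19:3323051-3323250, plus strand: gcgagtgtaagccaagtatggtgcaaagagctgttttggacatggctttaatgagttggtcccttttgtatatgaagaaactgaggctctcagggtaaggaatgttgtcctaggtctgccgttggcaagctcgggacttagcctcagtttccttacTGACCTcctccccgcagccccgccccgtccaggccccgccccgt
Pdk4 promoter, chr6:5496329-5496528, minus strand: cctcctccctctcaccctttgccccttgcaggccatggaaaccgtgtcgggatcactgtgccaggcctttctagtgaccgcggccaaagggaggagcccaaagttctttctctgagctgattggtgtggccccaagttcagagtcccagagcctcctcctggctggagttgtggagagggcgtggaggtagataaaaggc
Acadm promoter, chr3:153944694-153944893, minus strand: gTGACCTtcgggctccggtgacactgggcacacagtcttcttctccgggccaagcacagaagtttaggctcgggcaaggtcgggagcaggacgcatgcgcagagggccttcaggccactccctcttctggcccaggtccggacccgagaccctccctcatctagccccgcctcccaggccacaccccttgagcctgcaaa
Cpt1a held 1 AGGTCA motif on the opposite strand, at bases 94 to 89 before the start, and Acadm held 1 on the opposite strand, at bases 249 to 244. The windows of Pdk4, Ppara and both Bdh1 promoters held none. Of 32851 mouse promoters of the same length, 11.4% held the motif. A pair of AGGTCA motifs 1 base apart, with up to 2 mismatches in its 12 letters, was in none of the 6 windows and in 2.56% of all promoters. These matches describe letters in a short window and say nothing of binding.

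The libraries held 36202 called cells, of which 30521 were kept (1000 to 6000 genes and under 20% mitochondrial RNA). These limits acted differently by region. Over 6000 genes lay 18.2% and 11.5% of called cells in ileum replicates 1 and 2, against 1.35% and 3.34% in jejunum replicates 1 and 2. At or above 20% mitochondrial RNA lay 0.212% and 0.794%, against 5.28% and 19.5%. The part of this selection in the results was not tested. Depth and mitochondrial share went with region: the median number of UMIs per kept cell (unique molecular identifiers, each standing for 1 RNA molecule) was 10916 to 12048 in the ileum, against 4689 to 5884 in the jejunum, and the median mitochondrial share 3.61 to 3.74% and 6.37 to 9.94%. The kept cells formed 23 clusters, of which those named enterocyte-like held 25325 cells and those named stem/progenitor-like 2490 cells. The 10 enterocyte markers summed to 8191 to 9940 CPM (the UMIs of a gene, scaled to 1000000 UMIs of a sum of cells) in the first class and 2165 to 2954 CPM in the second, and the 11 stem/progenitor markers to 174 to 216 and 3683 to 4906 CPM. The 8 goblet markers, none of them at 0, summed to 158 to 197 CPM in ileal and 68.4 to 77.1 CPM in jejunal enterocyte-like cells, and their part in the results below was not tested. Xist and the Y-linked Eif2s3y went against the labelled sex in all 4 libraries, so the animals are called mouse 1 and mouse 2. Of the 6 pairs of libraries, 2 shared 1 cell barcode each.

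In enterocyte-like cells Acat1 and Cyp4a10 were lower in the ileum than in the jejunum. Acat1 differed by 3.72 times, and Cyp4a10 had at most 9 UMIs in an ileal library. Pdk4 was on the same side in both mice but missed the threshold, and Cpt1a and Bdh1 lay slightly higher in the jejunum without being called. Acadm, Ppara and Angptl4 were not called. These calls come from edgeR's quasi-likelihood test on UMIs summed per library, with Benjamini-Hochberg adjustment over all 19507 genes tested. Of these genes, 1413 were called at an adjusted p under 0.05 (7.24%), 607 of them lower in the ileum (3.11%), and of the 8 members 2 were called, both lower in the ileum. Since the members were chosen with earlier results of these data known, this count describes them and is not independent evidence. Without TMM scaling, which moved the median log2 fold change of all genes from -0.01 to 0.11, 1344 genes were called higher and 603 lower in the ileum, against 806 and 607.

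**Figure D1:**
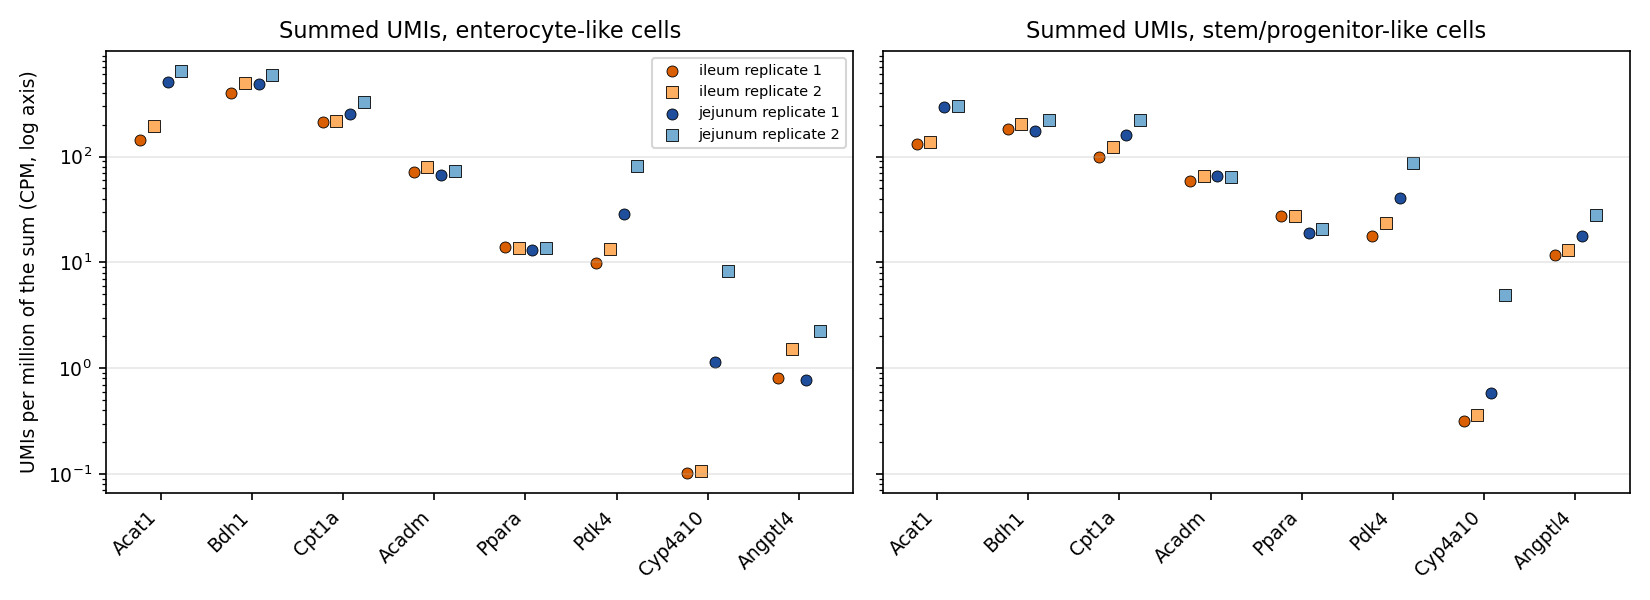
Level of the 8 members in each of the 4 libraries, in CPM on a log axis, for enterocyte-like cells (left) and stem/progenitor-like cells (right); each point is 1 library, with ileum in orange and jejunum in blue, circles for replicate 1 and squares for replicate 2. Acat1, Cpt1a, Pdk4 and Cyp4a10 have both jejunal points above both ileal points in both panels. For Cyp4a10 in stem/progenitor-like cells this order rests on 1 and 1 ileal and 2 and 20 jejunal UMIs. The 4 Ppara points of enterocyte-like cells lie between 13.2 and 13.95 CPM.

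Acat1, the mitochondrial thiolase at the entry to ketogenesis, was measured in enterocyte-like cells at 142 and 195 CPM in ileum replicates 1 and 2, and at 506 and 645 CPM in jejunum replicates 1 and 2. The regions did not overlap, and within each animal the jejunum was higher, by 3.57 times in mouse 1 and 3.31 times in mouse 2. By edgeR the log2 fold change, ileum over jejunum, was -1.89 ± 0.25 (SE, adjusted p = 0.0218). The call was lost without ileum replicate 1 (-1.64, adjusted p = 0.0569) and without the filter on low counts (-1.87, adjusted p = 0.0734). In cells with under 10% mitochondrial RNA it was -1.98 (adjusted p = 0.0192).

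Bdh1, the last enzyme of ketogenesis and the first of ketone body use, stood at 395 and 492 CPM in the ileum, against 484 and 583 CPM in the jejunum. The ranges overlapped, with ileum replicate 2 above jejunum replicate 1. Bdh1 had a log2 fold change of -0.39 ± 0.20 (SE), and edgeR gave an adjusted p of 0.265.

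Of the genes that feed this route, Cpt1a was measured at 212 and 218 CPM in the ileum, against 253 and 324 CPM in the jejunum. Both jejunal libraries were above both ileal ones, but the jejunal libraries were far apart. The log2 fold change was -0.55 ± 0.18 (SE, edgeR adjusted p = 0.124), and with the mouse as a replicate block it passed (-0.54, adjusted p = 0.0406). Acadm stood at 70.7 and 79.2 CPM in the ileum, against 66.5 and 72.6 CPM in the jejunum, with overlapping ranges. Its log2 fold change was -0.01 ± 0.16 (SE, edgeR adjusted p = 0.961), and the sign turned with the scaling (0.11 without TMM factors).

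Ppara, the receptor, had nearly the same level in all 4 libraries, with 13.95 and 13.6 CPM in the ileum, against 13.2 and 13.7 CPM in the jejunum. The ranges overlapped. A log2 fold change of -0.09 ± 0.15 was fitted (SE, edgeR adjusted p = 0.721), and 0.03 without TMM factors.

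Of the target genes, Pdk4 was at 9.80 and 13.4 CPM in the ileum, against 28.5 and 81.1 CPM in the jejunum. The regions did not overlap, but jejunum replicate 2 was far above jejunum replicate 1. The fold between jejunum and ileum was 2.91 in mouse 1 and 6.06 in mouse 2, and the log2 fold change was -2.37 ± 0.53 (SE, edgeR adjusted p = 0.0555). Pdk4 passed with the mouse as a replicate block (-2.20, adjusted p = 0.00485), without jejunum replicate 1 (-2.94, adjusted p = 0.00451), with DESeq2 (adjusted p = 0.0154), without TMM factors (adjusted p = 0.0466) and with sums thinned to the smallest (adjusted p = 0.0459). Without jejunum replicate 2 the log2 fold change was -1.36.

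Cyp4a10 was represented by 8 and 9 UMIs in the ileum (0.103 and 0.107 CPM) and by 60 and 334 UMIs in the jejunum (1.15 and 8.25 CPM). The regions did not overlap, and jejunum replicate 2 carried most of the UMIs. Pooled over libraries, 17 UMIs against 394 gave a jejunum-to-ileum ratio of 40.6 (exact 95% interval 25 to 70.4, which covers counting error only), while the folds within mouse 1 and mouse 2 were 11.2 and 77.1. The log2 fold change was -5.60 ± 1.09 (SE, edgeR adjusted p = 0.0424). The call was lost without ileum replicate 1 (-5.52, adjusted p = 0.144), without ileum replicate 2 (-5.67, adjusted p = 0.120) and without the filter on low counts (adjusted p = 0.114), and without jejunum replicate 2 the value was -3.50 (adjusted p = 0.0216). Cyp4a10 has near-identical copies in the genome, such as Cyp4a31 and Cyp4a32, so that reads may have been split among them.

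Angptl4 was sparse in enterocyte-like cells, with 63 and 127 UMIs in the ileum (0.808 and 1.51 CPM) and 40 and 91 in the jejunum (0.768 and 2.25 CPM). The lowest and the highest library were both jejunal. Its log2 fold change was -0.49 ± 0.60 (SE, edgeR adjusted p = 0.620) and turned to 0.54 without jejunum replicate 2.

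**Figure D2:**
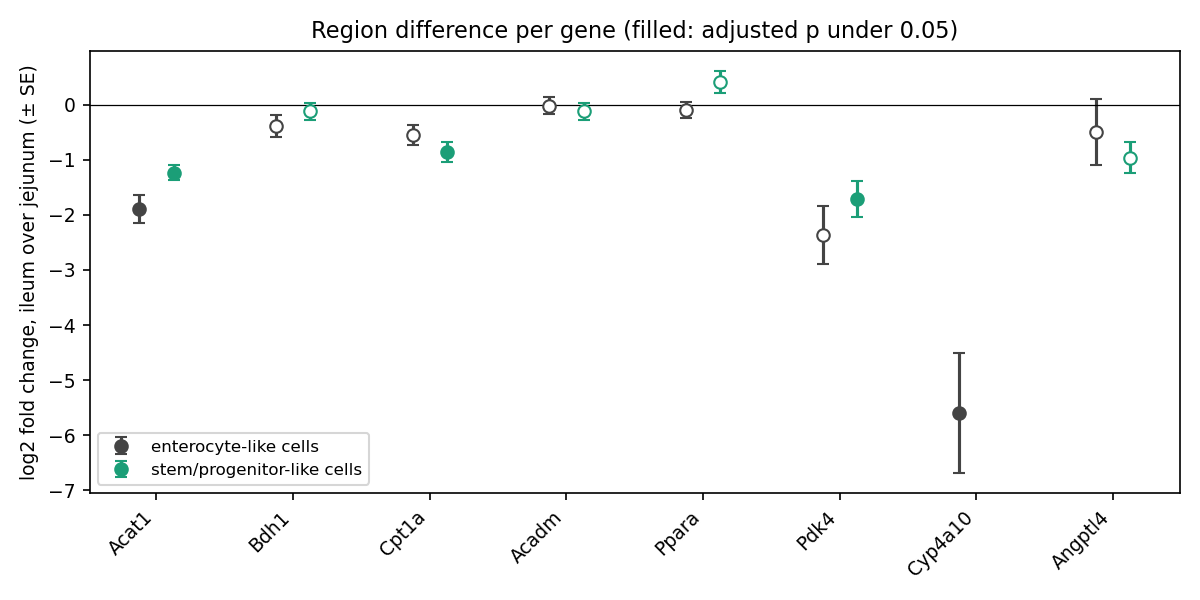
log2 fold change, ileum over jejunum, of each member with its standard error, in enterocyte-like cells (grey) and stem/progenitor-like cells (green), from edgeR over 4 libraries; filled points have an adjusted p under 0.05. Acat1 is filled and below 0 in both classes, Pdk4 and Cpt1a only in stem/progenitor-like cells, and Cyp4a10 has a value for enterocyte-like cells only.

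In stem/progenitor-like cells, 3 of the 7 members that passed the filter on low counts were called, Acat1, Pdk4 and Cpt1a, all lower in the ileum. Of the 12974 genes tested 343 were called (2.64%), 170 of them lower in the ileum (1.31%). The count of members is again a description, as they were chosen with earlier results known. This class was summed from 550 and 566 ileal and 680 and 694 jejunal cells, and its sums of 2755931 to 4031746 UMIs per library were far below those of enterocyte-like cells (40489857 to 84090971 UMIs).

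Acat1 was at 130 and 137 CPM in the ileum, against 297 and 302 CPM in the jejunum in this class. Within each region the replicates lay close together, and the regions did not overlap. It was lower in the ileum, with a log2 fold change of -1.23 ± 0.13 (SE, edgeR adjusted p = 0.00144).

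Cpt1a was at 98.3 and 122 CPM in the ileum, against 161 and 220 CPM in the jejunum. The regions did not overlap. The log2 fold change was -0.85 ± 0.18 (SE, edgeR adjusted p = 0.0411), and the call was lost without ileum replicate 1 (-0.68, adjusted p = 0.231), without jejunum replicate 2 (-0.61, adjusted p = 0.0520), in cells with under 10% mitochondrial RNA (-0.67, adjusted p = 0.102) and without the cluster led by Celf2 (-0.76, adjusted p = 0.0529). That cluster held 854 cells, had none of the class markers among its 10 leading genes and was shallow (median 2408 UMIs per cell), so each result of this class was also computed without it, a choice made after seeing the data. When members and pathway genes were used for clustering, a cluster of 716 cells led by Celf2, Rmrp and Ccnb1ip1 was named enterocyte-like.

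Pdk4 was at 17.8 and 23.6 CPM in the ileum, against 41.0 and 86.6 CPM in the jejunum, again with jejunum replicate 2 far above the others. The log2 fold change was -1.70 ± 0.33 (SE, edgeR adjusted p = 0.0249). It was -1.49 without ileum replicate 1 (adjusted p = 0.0826), -1.06 without jejunum replicate 2 (adjusted p = 0.00134) and -2.12 without the Celf2-led cluster (adjusted p = 0.00911).

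Angptl4 had 37 and 36 ileal UMIs (11.8 and 13.1 CPM) and 60 and 114 jejunal UMIs (17.7 and 28.3 CPM). The regions did not overlap, but the log2 fold change of -0.96 ± 0.28 was not called (edgeR adjusted p = 0.120). It passed with the mouse as a replicate block (adjusted p = 0.00572), without the filter on low counts (adjusted p = 0.0101) and without jejunum replicate 1 (-1.27, adjusted p = 0.000697). Ppara was at 27.7 and 27.6 CPM in the ileum, against 18.9 and 20.6 CPM in the jejunum, the only member whose 2 ileal values were both above the jejunal ones in this class. Its log2 fold change of 0.42 ± 0.20 was not called (edgeR adjusted p = 0.355). Bdh1 (180 and 204 CPM in the ileum, 176 and 221 CPM in the jejunum) and Acadm (59.2 and 65.3 CPM, 64.8 and 64.0 CPM) overlapped between the regions, with adjusted p-values of 0.800 and 0.801 by edgeR. Cyp4a10, with 1 and 1 ileal and 2 and 20 jejunal UMIs, did not pass the filter, and without the filter its log2 fold change was -3.04 (edgeR adjusted p = 0.0230).

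The region difference was compared between the classes by a region-by-class interaction term, with the library as a block. Of the 8 members 1 was called, Acat1, against 1535 of 19345 genes (7.93%). The difference of Acat1 was larger in enterocyte-like cells by 0.67 ± 0.16 on the log2 scale (interaction -0.67, edgeR adjusted p = 0.0156). Pdk4 (-0.61 ± 0.22, adjusted p = 0.0975) had the same sign and was not called by edgeR. The other 6 members had edgeR adjusted p-values from 0.208 to 0.776, so that a difference between the classes was not shown for them, although Cpt1a and Pdk4 passed in 1 class only.

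For each member but Cyp4a10, the same class had the higher level in all 4 libraries. The size of the ratios between the 2 classes varied between libraries. The classes come from clusters of the same cells, so these ratios are a description with no test, although the members and pathway genes were left out of the genes used for clustering. Angptl4 was the member with the highest ratio: its CPM in stem/progenitor-like cells was 14.6 and 8.65 times that in enterocyte-like cells in the ileum, against 23.0 and 12.6 times in the jejunum. Without the Celf2-led cluster the Angptl4 level of the class was 12.0, 12.8, 19.9 and 25.1 CPM. The Ppara level was 1.98 and 2.03 times that of enterocyte-like cells in the ileal libraries, and 1.43 and 1.50 times in the jejunal libraries.

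Bdh1 lay on the other side, with a level in stem/progenitor-like cells of 0.456 and 0.413 times that of enterocyte-like cells in the ileum, against 0.363 and 0.380 times in the jejunum. Cpt1a was also lower in stem/progenitor-like cells, by ratios of 0.464 to 0.677. For Acat1 the ratio went from 0.918 and 0.703 in the ileum to 0.587 and 0.468 in the jejunum, on the levels behind the interaction above, while Acadm ratios lay between 0.825 and 0.974.

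Pdk4 ratios of 1.82, 1.76, 1.44 and 1.07 rested on the Celf2-led cluster. In that cluster Pdk4 was at 77.7 and 102 CPM in the ileum, against 119 and 194 CPM in the jejunum, but in the other stem/progenitor-like clusters at 9.11, 10.2, 24.6 and 56.3 CPM, below the enterocyte-like level of the same library.

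**Figure D3:**
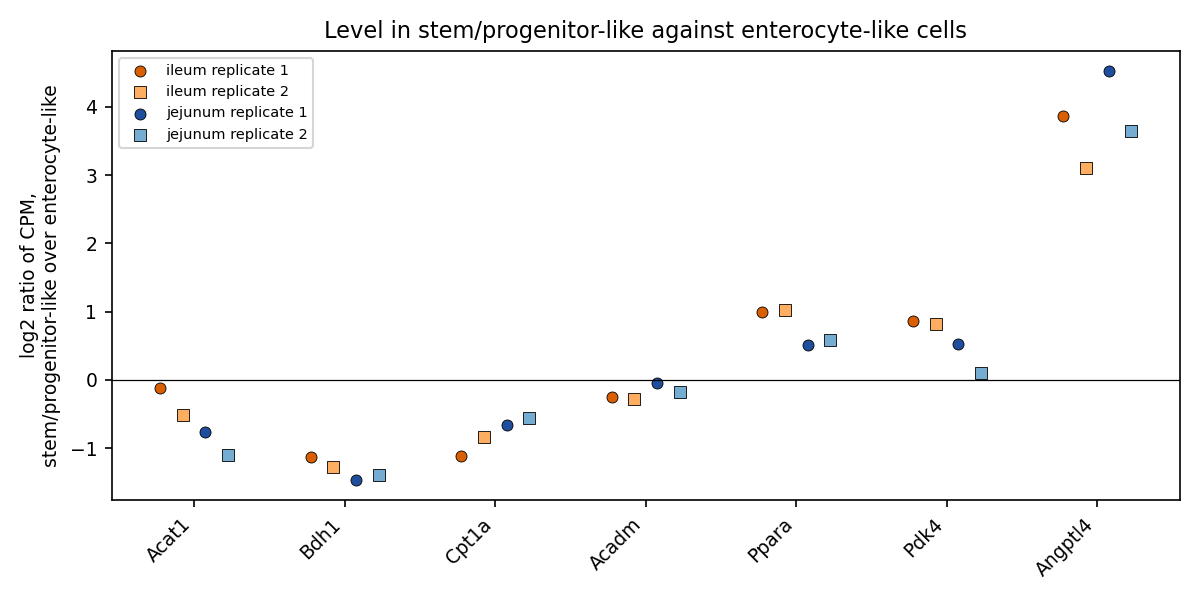
log2 ratio of the CPM in stem/progenitor-like cells to that in enterocyte-like cells of the same library, for 7 members; each point is 1 library (ileum orange, jejunum blue) and 0 means equal levels. Angptl4 points lie at 3.11 to 4.52 and Ppara points at 0.52 to 1.02, whereas Bdh1 points lie at -1.46 to -1.13; Cyp4a10 is left out, since 3 of its 4 stem/progenitor-like sums held 3 UMIs or fewer.

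Differences in depth between the libraries do not enter shares of cells taken at the same depth. Each enterocyte-like cell was therefore thinned to 2000 UMIs, which left out 43, 225, 610 and 160 shallower cells in ileum replicates 1 and 2 and jejunum replicates 1 and 2 and kept 6068, 6575, 7069 and 4575. Acat1 was then seen in 21.9% and 29.1% of ileal and 55.5% and 63.6% of jejunal cells. Pdk4 was seen in 1.78% and 2.97% of ileal and 5.15% and 12.9% of jejunal cells. Both genes kept the order of their CPM values, with no overlap between the regions.

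Cyp4a10 had a UMI in 0 of 6068 cells of ileum replicate 1, which allows a share of up to 0.0494% of cells with a UMI at this depth (3 counts of the total), and in 0.0304% of cells of ileum replicate 2. In the jejunum the shares were 0.198% (exact 95% interval 0.108 to 0.332%) and 1.49% (1.16 to 1.88%). Even in jejunum replicate 2 most cells thus had no Cyp4a10 UMI at this depth. Without thinning, 0.131% and 0.132% of ileal and 0.612% and 5.83% of jejunal cells had one. Ppara was seen in 2.98%, 2.65%, 2.87% and 2.64% of cells, Angptl4 in 0.181%, 0.213%, 0.141% and 0.481%, Cpt1a in 32.7%, 33.7%, 37.1% and 44.6%, Bdh1 in 50.1%, 58.1%, 56.7% and 64.3% and Acadm in 12.6%, 13.2%, 10.6% and 10.6%.

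**Figure D4:**
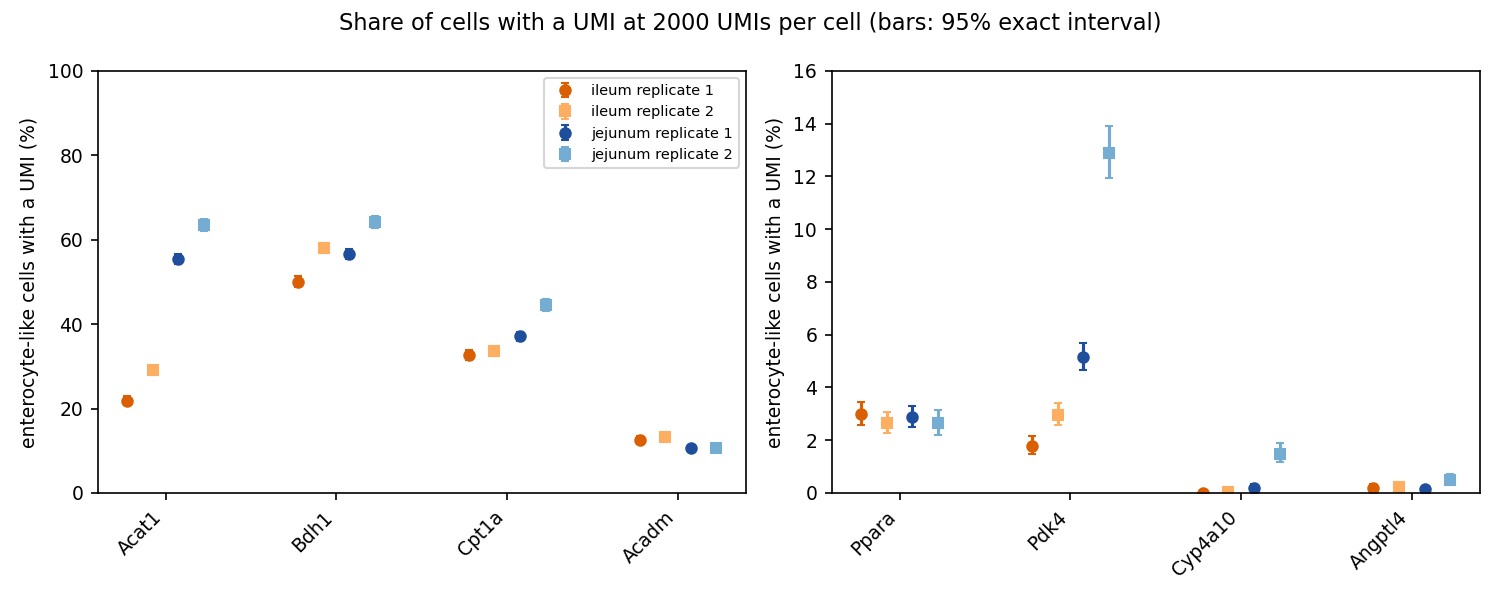
Share of enterocyte-like cells with at least 1 UMI of each gene after thinning every cell to 2000 UMIs, by library, with exact 95% intervals (counting error only); the left panel runs to 100% and the right panel to 16%. Acat1 lies at 21.9 and 29.1% in the ileum, against 55.5 and 63.6% in the jejunum, and Ppara between 2.64 and 2.98% in all 4 libraries.

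Taken without thinning, shares of Cpt1a, Acadm, Bdh1, Ppara and Angptl4 were higher in the ileum (by 7.42, 20.2, 4.08, 5.63 and 0.251 percentage points), where cells were deeper: the median of enterocyte-like cells was 14219 and 13290 UMIs in the ileum, against 4907 and 6215 in the jejunum. As a measure of background, the same shares were taken in enteroendocrine-like cells, whose medians before thinning were 3193, 3424, 3187 and 5326 UMIs. At 2000 UMIs Acat1 was seen there in 12.5%, 13.4%, 30.5% and 26.7% of 72, 67, 59 and 45 cells, below the enterocyte-like share of each library. The Ppara shares there were 1.39%, 0%, 3.39% and 2.22%, and the Pdk4 shares 1.39%, 2.99%, 6.78% and 4.44%. Enteroendocrine-like cells may express these genes themselves, and their shares rested on 45 to 72 cells per library. For Ppara and Pdk4, expression in an enterocyte-like cell and free RNA in its droplet thus cannot be told apart from these shares. For Acat1 the part of free RNA was not tested. Angptl4 and Cyp4a10 were seen in none of the enteroendocrine-like cells, which allows up to 4.17% to 6.67% of cells with a UMI at this depth (3 counts of the total).

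The order of the regions was also read within single clusters of enterocyte-like cells, over the 14 clusters with at least 50 cells in both libraries of mouse 1 and the 13 of mouse 2. Acat1, Cpt1a and Pdk4 had the higher CPM in the jejunum in 14 of 14 clusters in mouse 1 and 13 of 13 in mouse 2. Bdh1 did so in 12 and 12, Cyp4a10 in 11 and 12, Angptl4 in 7 and 9, Acadm in 5 and 6 and Ppara in 6 and 6. Clusters of 1 library are not replicates, and these counts carry no test.

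Among the enterocyte-like clusters compared, Pdk4 was highest in the cluster led by Gm17494, Snhg20 and Celf2 (30.5 and 47.5 CPM in the ileum, 53.8 and 131 CPM in the jejunum) and in the cluster led by Ms4a18, Defb37 and Fabp6 (26.0 and 29.3 CPM, 49.8 and 129 CPM). The same pair of clusters held jejunal Cyp4a10 at 3.26 and 19.0 CPM and at 4.12 and 22.4 CPM. Over the 13 enterocyte-like clusters compared in mouse 2, in jejunum replicate 2 Cyp4a10 ran from 0 to 22.4 CPM and Pdk4 from 32.2 to 131 CPM, whereas Acat1 ran from 327 to 882 CPM. Acadm was also highest in the Ms4a18-led cluster, with jejunal values of 117 and 121 CPM.

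Per cell, the members were only weakly correlated with each other. At 2000 UMIs an enterocyte-like cell had a UMI of 1.22 and 1.40 members on average in the ileum and of 1.68 and 2.01 in the jejunum, and 22.5%, 17.1%, 10.9% and 5.90% of cells had none. Over the 28 pairs of members, Pearson's r of log2(thinned count + 1) across cells of a library ran from -0.03 to 0.08, and 27 pairs had a mean r under 0.05 in size. Counts at this depth are sparse, and cells of a library share its RNA background, so these values are a description.

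The pair with the highest mean r was Bdh1 and Acat1, with r of 0.03 to 0.08 over the 4 libraries. Both were seen in 698, 1170, 2322 and 1919 cells, where the product of their shares would give 664, 1111, 2224 and 1869. Acadm with Acat1 (0.03 to 0.06), Cpt1a with Acat1 (0.006 to 0.052) and Cpt1a with Bdh1 (0.003 to 0.009) were the other pairs above 0 in all 4 libraries. This order changed at 1000 UMIs, where Pdk4 with Angptl4 had the highest mean r (0.042, above 0 in 4 libraries), against 0.033 for Bdh1 with Acat1. At 2000 UMIs Pdk4 with Angptl4 had a mean r of 0.0001 and was above 0 in 1 library. Cpt1a with Acat1 and Cpt1a with Bdh1 were above 0 in 3 libraries at 1000 UMIs. Pdk4 with Cyp4a10 reached 0.06 in jejunum replicate 2 and was above 0 in that library alone. There both were seen in 20 cells, where the product of their shares would give 8.77. Bdh1 and Cyp4a10 were both seen in 13 cells against 7.94 in jejunum replicate 1, but in 35 against 43.7 in jejunum replicate 2.

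Among 5189 genes seen in at least 5% of enterocyte-like cells of every library, those with the highest correlation in their lowest library were listed for each member. For Acat1 they were Oat, Fabp2 and Chpt1 (lowest r 0.087, 0.085 and 0.069), and those given for Bdh1 are Fabp2 and Sat1 (0.082 and 0.070). Pdk4 gave Edn1, Rpl12 and Chd9 (0.057, 0.048 and 0.046) and Cpt1a gave Cox6c, Gcnt2 and Cps1 (0.030, 0.028 and 0.028). Acadm gave Eef1a1, Rpl27 and Rps7 (0.050, 0.046 and 0.046), Ppara gave Gm20275, Rpl6 and Anpep (0.026, 0.025 and 0.023), and Angptl4 gave Rpl37a, Appbp2 and Gm2000 (0.018, 0.016 and 0.016). None of the genes given here exceeded 0.137 in any library, and for Cyp4a10 no list could be made because ileum replicate 1 had no UMI at this depth.

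Position along the villus was approximated by a score, the number of 5 villus tip genes (Ada, Nt5e, Slc28a2, Krt20 and Klf4) with a UMI in a cell thinned to 2000 UMIs. Cells with a score of 2 or more were set against cells with a score of 0. The mean log2 ratio over the 4 libraries was 0.001 ± 0.06 for Cpt1a, 0.04 ± 0.13 for Acadm, -0.12 ± 0.12 for Bdh1, -0.09 ± 0.09 for Acat1, -0.03 ± 0.25 for Ppara and -0.09 ± 0.40 for Pdk4 (SD, n = 4 libraries). Each mean was at most slightly larger than its SD, and the libraries of each gene fell on both sides of 0. Angptl4 and Cyp4a10 had too few UMIs for a ratio.

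The members were then placed among 137 genes of 7 pathway lists, of which 130 were tested in enterocyte-like cells. In all, 26 were called lower and 6 higher in the ileum, beside 607 lower (3.11%) and 806 higher of all 19507 genes tested. The median log2 fold change was -0.44, against -0.01 over all genes, and 76.9% of the listed genes lay below 0, against 50.8%. The count of called genes rested on single libraries: it was 8, 18, 34 and 12 without ileum replicate 1, ileum replicate 2, jejunum replicate 1 and jejunum replicate 2, and 67 with the mouse as a replicate block. Without the filter on low counts 1 gene was called, Cd36. Over all 19507 genes tested, 3417 were called with the mouse as a replicate block. DESeq2 called 1313 of all genes lower and 1711 higher in the ileum, which is the background of its list counts below. The share of all genes at an unadjusted p under 0.05 was not taken, so the unadjusted counts below have no such background.

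**Figure D5:**
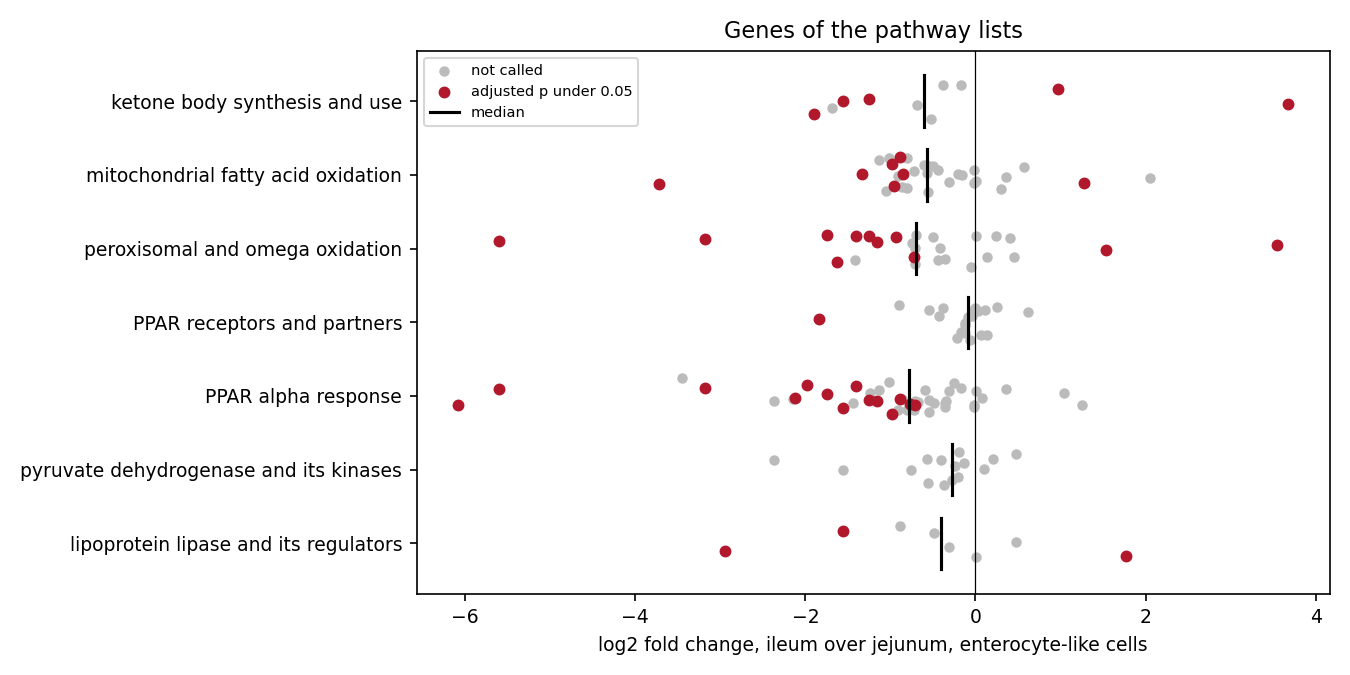
log2 fold change, ileum over jejunum, in enterocyte-like cells of each tested gene of the 7 pathway lists; each point is 1 gene, red points have an edgeR adjusted p under 0.05, and the black bar is the list's median. The PPAR alpha response list has its median at -0.79 and its 14 called genes all below 0, and the list of PPAR receptors and partners has its median at -0.09.

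In the list of ketone body synthesis and use, 10 genes were tested, 3 were called lower and 2 higher in the ileum by edgeR (4 and 2 by DESeq2), and the median was -0.61. Besides Acat1, Slc16a6, a monocarboxylate transporter known to export ketone bodies, was lower, at 178 and 181 CPM in the ileum, against 318 and 463 CPM in the jejunum (log2 fold change -1.25 ± 0.23, SE, edgeR adjusted p = 0.0364). The 2 genes called higher belong to ketone body use. Oxct1, the enzyme that activates acetoacetate for oxidation, was at 78.5 and 51.3 CPM in the ileum, against 5.93 and 3.36 CPM in the jejunum, with no overlap. Its log2 fold change was 3.68 ± 0.33 (SE, edgeR adjusted p = 0.0132), and in stem/progenitor-like cells it was 1.86 ± 0.21 (edgeR adjusted p = 0.00183), with levels of 115 and 99.8 CPM in the ileum, against 34.8 and 22.3 CPM in the jejunum. The difference between the classes passed the interaction test (1.83 ± 0.21, edgeR adjusted p = 1.53e-05). Aacs, which activates acetoacetate in the cytosol for lipid synthesis, had a log2 fold change of 0.97 ± 0.16 (edgeR adjusted p = 0.0314).

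In mitochondrial fatty acid oxidation, 31 of 32 genes were tested, 6 were called lower and 1 higher in the ileum by edgeR, and the median was -0.57. DESeq2 called 16 lower and 2 higher, and at an unadjusted p under 0.05 edgeR had 18 lower and 3 higher. The called genes included Slc27a2, a fatty acid transporter and very long-chain acyl-CoA synthetase, at -3.72 ± 0.60, Cpt2, the partner of Cpt1a on the inner membrane, at -0.98 ± 0.19, Cpt1b at -1.34 ± 0.26 and the acyl-CoA synthetase Acsl5 at -0.96 ± 0.19 (log2 fold change, SE, edgeR adjusted p from 0.0282 to 0.0459). Acadsb, which oxidizes branched short acyl chains, was higher in the ileum (1.27 ± 0.18, edgeR adjusted p = 0.0249). In peroxisomal and omega oxidation, 26 of 29 genes were tested, 9 were called lower and 2 higher by edgeR (14 and 2 by DESeq2), and the median was -0.70. Besides Cyp4a10, the thiolase Acaa1b (-3.18 ± 0.64), the acyl-CoA thioesterase Acot3 (-1.75 ± 0.29) and the carrier and thiolase Scp2 (-1.63 ± 0.19) were lower (edgeR adjusted p from 0.0182 to 0.0463), and Acox2, an oxidase of bile acid precursors and branched fatty acids, was higher (3.54 ± 0.21, edgeR adjusted p = 0.0120), as was the thioesterase Acot5 (1.53 ± 0.29, adjusted p = 0.0396). Members of the Acot and Acaa1 families have near-identical copies, and their single values are uncertain.

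Of the 21 PPAR receptors and partners, Ppargc1b, a coactivator, was the only one called by edgeR, lower in the ileum (-1.85 ± 0.21, SE, edgeR adjusted p = 0.0177), at 22.2 and 17.6 CPM in the ileum, against 56.0 and 74.7 CPM in the jejunum. DESeq2 called 4 genes of this list lower and 1 higher. Ppard (0.03 ± 0.17, edgeR adjusted p = 0.927), Pparg (-0.90 ± 0.25, adjusted p = 0.0908) and Rxra (0.07 ± 0.22, adjusted p = 0.858) were not called. The list of the PPAR alpha response had 44 of 46 genes tested, 14 called lower and 0 higher by edgeR, and a median of -0.79. DESeq2 called 27 lower and 0 higher, beside 1313 lower and 1711 higher of all 19507 genes. At an unadjusted p under 0.05 edgeR had 29 lower and 0 higher, with no share over all genes taken at that threshold. Cd36, a fatty acid translocase, had the largest difference of the listed genes, at 2.95 and 2.35 CPM in the ileum, against 156 and 173 CPM in the jejunum (-6.08 ± 0.20, SE, edgeR adjusted p = 0.00263), and Retsat, a retinol saturase, was at 8.03 and 10.1 CPM in the ileum, against 28.9 and 43.8 CPM in the jejunum (-2.13 ± 0.28, adjusted p = 0.0218).

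Of the 15 genes of pyruvate dehydrogenase and its kinases 0 were called by edgeR, with 6 at an unadjusted p under 0.05 (5 lower and 1 higher in the ileum), DESeq2 called 3 lower, Pdk4 among them, and 1 higher, and their median was -0.27. The other kinases Pdk1, Pdk2 and Pdk3 had log2 fold changes of -0.20, -0.41 and 0.21 (edgeR adjusted p from 0.231 to 0.597), each smaller in size than that of Pdk4. Of the 8 tested genes around lipoprotein lipase, the enzyme that Angptl4 inhibits, edgeR called 2 lower and 1 higher and DESeq2 3 lower and 1 higher. Lpl itself was higher in the ileum (1.77 ± 0.33, edgeR adjusted p = 0.0373) at levels of 1.15 and 0.856 CPM against 0.288 and 0.247 CPM. Its activator Apoc2 (-2.95 ± 0.23, edgeR adjusted p = 0.0127) and its inhibitor Apoc3 (-1.56 ± 0.23, adjusted p = 0.0254) were lower.

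In stem/progenitor-like cells the lists gave 22 genes called lower and 1 higher of 119 tested, beside 170 lower (1.31%) and 173 higher of all 12974 genes tested. The median was -0.27, against 0.006 over all genes. Without ileum replicate 1 the number called was 10, without jejunum replicate 1 it was 44, and with the mouse as a replicate block 49. In the PPAR alpha response list, the largest of the 7, 13 of 41 tested genes were called, all lower, with a median of -0.66. Mitochondrial fatty acid oxidation had 9 lower of 31, peroxisomal and omega oxidation 3 of 21, and ketone body genes 2 lower and 1 higher of 9. For all 137 genes, the members and the lists were chosen with results of these libraries known, so the counts describe the lists and are not independent evidence of their direction.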

How the data were processed

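Epithelium was released from each segment with EDTA and dissociated with dispase, and cells were captured with the PIPseq V T20 kit. The authors counted UMIs with PIPseeker at sensitivity level 3, and the deposited matrices hold whole UMI counts per gene and called cell. The submitters' processing notes name the build GRCm39, and the annotation release is not given in the sources used here. The reference given was GRCm38, so no gene coordinates were taken from it, and RefSeq promoters carry their own build.

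Cells with 1000 to 6000 genes and under 20% mitochondrial counts, and genes seen in at least 3 cells, were kept. Scrublet (scanpy 1.11.5 with Python 3.11.15 and scipy 1.17.1) marked 6 kept cells as doublets at an expected 6%. That is too few for a working call, and no cell was removed. Leaving out the highest 6% of scores was an alternative. Seurat 5.3.0 (R 4.3.3) integrated the libraries by CCA (2000 variable genes without 16 members or pathway genes, 30 dimensions) and clustered at resolution 1. A class needed 3 of its markers in at least 10% of a cluster's cells and raised by more than 1 on the log2 scale over the remaining cells (5 CPM added), and enterocyte-like clusters needed 3 markers in at least 50% of cells at a mean log2 above -1. Both naming rules were adjusted with the clusters in view. A cluster of 2374 cells led by Hbb-bs stayed unnamed.

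For each library, UMI counts of a class were added up. Genes passed filterByExpr, and regions were compared in edgeR 4.0.16 (quasi-likelihood F-test) with TMM factors and region as the only term. The SE given with a log2 fold change was derived from the test, as the size of the change divided by the square root of its F statistic. A negative log2 fold change means lower in the ileum, and called means a Benjamini-Hochberg adjusted p under 0.05 over all genes tested. Fits were tested on simulated data, and DESeq2 1.42.0 was an alternative. Both segments of a replicate number came from the same mouse, and the deviations of paired libraries from their region means correlated at 0.279 over 19507 genes. Blocked values are given where they change a call. An exact permutation test of 2 against 2 libraries cannot go below p = 0.333, so shares carry no test. All exact intervals are Clopper-Pearson at 95% and cover counting error only. The tip score had been planned as the upper against the lower part of the ranked cells, but 2360 to 3319 cells of each library tied at 0, so scores of 0 and of 2 or more were compared.

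The members and lists were chosen with earlier results of these data known. Named genes are the members, from each list up to 4 called genes per direction with the largest change in enterocyte-like cells, and the 3 most correlated genes of each member. Ppard, Pparg, Rxra, Pdk1, Pdk2 and Pdk3, and the clusters identified by their leading genes, were named after their values were seen. No cell was removed for a shared barcode. Some genes that these rules select are not reported here, and the counts of the lists include them.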

Additional observations from a re-analysis of the deposited data

Results flagged for a closer look

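The region difference of Acat1 was not the same in the 2 classes. The interaction of region and class was -0.67 on the log2 scale (edgeR, adjusted p = 0.0156), with a lower ileal level relative to the jejunum in enterocyte-like than in stem/progenitor-like cells. The value was -0.68 without mouse 1 and -0.62 without mouse 2, where no test was possible, -0.74 with enterocyte-like sums thinned to the totals of the other class (adjusted p = 0.00588), -0.69 in cells with under 10% mitochondrial counts (adjusted p = 0.00597) and -0.69 without the Celf2-led cluster (adjusted p = 0.00645). The 11 stem/progenitor markers summed to 174 to 189 CPM in ileal and 200 to 216 CPM in jejunal enterocyte-like cells, and the 10 enterocyte markers to 2165 to 2232 and 2524 to 2954 CPM in stem/progenitor-like cells. Their part in the result was not tested.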

How the results depend on the processing

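Of 356 alternatives over all results, 305 were labelled the same. For fitted values this meant the same direction and side of the threshold, or the same direction alone where no test was possible. Counts of called genes were judged by their fold difference from the main count. Shares, correlations and tip score ratios had to stay within 1 SD. With the mouse as a replicate block, 3417 genes were called in enterocyte-like cells (against 1413) and 1409 in the stem/progenitor-like class (against 343); Cpt1a (-0.54) and Pdk4 (-2.20) passed in enterocyte-like cells and Angptl4 (-0.93) in stem/progenitor-like cells, and the block changed no other member's call. DESeq2 called 3024 genes in enterocyte-like cells, Pdk4 (-2.38) among them. Without the filter on low counts 1 gene was called in enterocyte-like cells and 961 in the stem/progenitor-like class; Acat1 (-1.87) and Cyp4a10 (-5.57) lost their call, Acadm turned to 0.014 and Angptl4 (-0.99) passed in stem/progenitor-like cells. Without TMM factors Acadm was 0.11, Ppara 0.033 and Pdk4 -2.24. With thinned sums Pdk4 was -2.41, and over all kept cells Acadm was 0.047. With a mitochondrial share under 10%, stem/progenitor-like Cpt1a was -0.67 and the interaction of Pdk4 -0.85 (adjusted p = 0.0227). Without the Celf2-led cluster, an alternative chosen after seeing the data as was adding the unnamed cells, Cpt1a was -0.76 and the interaction of Cyp4a10 turned to 3.23 on a few UMIs. The cause of these changes was not tested.

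Leaving out 1 library at a time gave 253 to 1366 called genes in enterocyte-like cells (253 without ileum replicate 1, 474 without jejunum replicate 2, 672 without ileum replicate 2) and 199 to 1036 in stem/progenitor-like cells (199 without ileum replicate 1, 1036 without jejunum replicate 1). The log2 fold changes in enterocyte-like cells ran from -0.15 to 0.11 for Acadm, from -2.19 to -1.64 for Acat1, from -2.94 to -1.36 for Pdk4, from -1.09 to 0.54 for Angptl4 and from -6.42 to -3.50 for Cyp4a10. In stem/progenitor-like cells they ran from -1.08 to -0.61 for Cpt1a, from -0.29 to 0.056 for Bdh1, from -2.15 to -1.06 for Pdk4 and from -1.27 to -0.58 for Angptl4. Where a region is left with 1 library, that library is assumed to vary like the others. The interaction has no residual degrees of freedom within 1 mouse.

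For shares, taking cells without thinning moved the ileum-minus-jejunum difference to 7.42, 20.2, 4.08, -12.5, 5.63, -12.9, 0.251 and -3.09 percentage points for Cpt1a, Acadm, Bdh1, Acat1, Ppara, Pdk4, Angptl4 and Cyp4a10. At 1000 UMIs it was 1.59 for Acadm and -24.1 for Acat1, and in cells chosen by enterocyte markers -0.369 for Angptl4. The tip score ratio of Ppara was 0.31 at 1000 UMIs. Members with under 1 CPM are limited by depth.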
